A study of Mus musculus and Rattus norvegicus with 18 samples.

Results

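The genes described here are 39 genes of fatty acid oxidation and of its control by peroxisome proliferator-activated receptors (PPARs), taken by symbol from the counts of 2 kidney cell kinds. They are 4 genes of the carnitine shuttle, 12 enzymes of the mitochondrial spiral, 3 electron transfer genes, 3 peroxisomal enzymes, 4 enzymes of dual or other site, 4 acyl-CoA synthetases, 5 regulators, 3 genes of fatty acid uptake and binding, and Pdk4. All 39 were among the 22322 genes counted in mouse primary tubular epithelial cells (TECs), and 37 were among the 22050 genes counted in NRK49F, a rat kidney fibroblast line. Eci2 and Cd36 were not analysed in NRK49F. Each symbol stood for 1 entry.

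Each cell kind was studied as control cells in medium alone, as cells given 5 ng/ml TGF-β1 for 24 h, and as cells given 20 nM narciclasine (Ncls) for 2 h and then TGF-β1 together with narciclasine. Narciclasine is a plant alkaloid that slows protein synthesis. All groups, controls included, were first starved of serum for 6 h, and each of the 6 groups had 3 libraries of poly(A) RNA. No group had narciclasine without TGF-β, so its own effect cannot be told apart from a changed response to TGF-β. TECs are primary mouse cells and NRK49F is an established rat line, so cell kind and species cannot be told apart either, and the labels do not tie the TEC replicates to separate animals. In bulk RNA, fewer cells of a type and less RNA per cell cannot be told apart.

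Fatty acids enter cells partly through carriers such as Cd36 and are activated to acyl-CoA by synthetases. The carnitine shuttle then carries long chains across the mitochondrial membranes, where each turn of the spiral of dehydrogenase, hydratase, dehydrogenase and thiolase removes an acetyl unit and hands electrons to the respiratory chain. Peroxisomes run a related spiral on very long and branched chains, with an oxidase as its opening step. PPARs are nuclear receptors that bind fatty acids and switch on many of these genes, with the coactivator Ppargc1a (PGC-1α) as a partner. In the kidney, proximal tubule cells depend on this pathway for energy.

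Library totals ran from 16652016 to 25192716 counts in TECs and from 14695732 to 18463855 in NRK49F. The 13 genes of the mitochondrial genome took 4.32 to 4.6% of the control TEC counts, 5.36 to 5.75% after TGF-β and 3.94 to 4.02% after the combined treatment; for NRK49F these shares were 2.85 to 3.01%, 2.13 to 3.77% and 2.03 to 2.75%. Replicate 2 stood apart in NRK49F: the median absolute log2 difference between libraries of a group was 0.0835 to 0.153 for pairs with replicate 2 and 0.0615 to 0.0742 for the others, against 0.053 to 0.0712 in TECs. Of the 12 proximal tubule markers, Slc34a1, Slc5a2, Slc5a12, Slc22a6, Slc22a8 and Miox were near 0 in the TECs, between 0.0304 and 0.308 CPM, Lrp2 averaged 98.6 CPM and Gatm, Cubn, Aqp1, Kap and Hnf4a 4.6 to 12.4 CPM, while the epithelial genes Epcam, Cdh1 and Cdh16 averaged 383, 1020 and 556 CPM. In NRK49F Col1a1 averaged 14500 CPM, the epithelial genes Epcam and Cdh1 were near 0 at 0.101 and 0.283 CPM but Krt8 averaged 838 CPM, and near 0 were also the fibroblast markers Thy1 and Dcn, at 0.0141 and 0.227 CPM.

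Levels below are CPM, read counts scaled to library size with TMM factors, given for replicates 1, 2 and 3 in that order. Changes are log2 values from edgeR's quasi-likelihood test with its standard error (SE), and a gene rose or fell where the Benjamini-Hochberg adjusted p over all genes tested was under 0.05. Of the 39 genes, all passed the count filter in TECs and 32 did in NRK49F. Ehhadh, Pparg, Ppargc1a, Fabp4 and Pdk4 did not pass there. Fabp3 in NRK49F passed through its 3 TGF-β libraries alone, and Pparg in TECs had no TGF-β library at the filter's level, and the same held for Ppara in TECs, so their change was partly built into the filter. Cd36 in TECs had no library of the combined treatment at that level, so its change with that treatment was partly built in too.

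TGF-β changed most of these genes in both cell kinds, as it did most genes tested, 9139 of 13244 in TECs and 8216 of 11444 in NRK49F. In TECs 13 of the 39 rose, where 34.1% of all 13244 genes tested rose, and 17 fell, where 34.9% of all genes fell; the median change was -0.093, against -0.0049 over all genes tested. In NRK49F 6 of 32 rose against 33.7% of all 11444 genes, and 19 fell against 38.0%, with a median of -0.47 against -0.05; the count of 6 includes Fabp3, which had to differ to be tested. The main movers were lower regulators in TECs, and lower mitochondrial enzymes beside 4 higher acyl-CoA synthetases in NRK49F. All 5 regulators fell in TECs, but for Ppara and Pparg the fall was partly built into the filter.

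Narciclasine on top of TGF-β changed 19 of them in each cell kind. In TECs 3 of 39 rose against 26.8% of all genes, and 16 fell against 25.5%, with a median of -0.074 against 0.0019. The 3 that rose were Acaa2, Etfb and Acsl5, by at most 0.21, and 1 was left without TGF-β replicate 1 or without replicate 2 of the combined treatment. In NRK49F 9 of 32 rose against 31.6%, and 10 fell, Fabp3 again among them, against 31.1%; the count of 9 became 5 without TGF-β replicate 1 or without replicate 1 or 3 of the combined treatment. Their median was 0.014 against -0.002, and -0.007 with RLE and -0.024 with upper quartile factors. Compared with control, the combined treatment left 8 genes higher against 32.4% and 21 lower against 30.6% in TECs, and 5 higher against 33.4% and 21 lower against 33.4% in NRK49F.

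With libraries scaled by their totals alone, the median of all genes shifted to -0.135 with TGF-β and -0.10 with the combined treatment in TECs, and to -0.237 and -0.125 in NRK49F. The share of higher genes among all called genes then fell from 49.4% to 34.8% and from 51.5% to 36.9% in TECs, and from 47% to 35% and from 50% to 40% in NRK49F. The members' counts became 10 higher and 19 lower with TGF-β and 4 higher and 27 lower with the combined treatment in TECs, and 5 and 21, then 5 and 22, in NRK49F. Without replicate 2 of all 3 NRK49F groups the counts were 7 higher and 19 lower with TGF-β, 11 and 10 with added narciclasine, and 5 and 20 for the combined treatment against control.

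**Figure D1:**
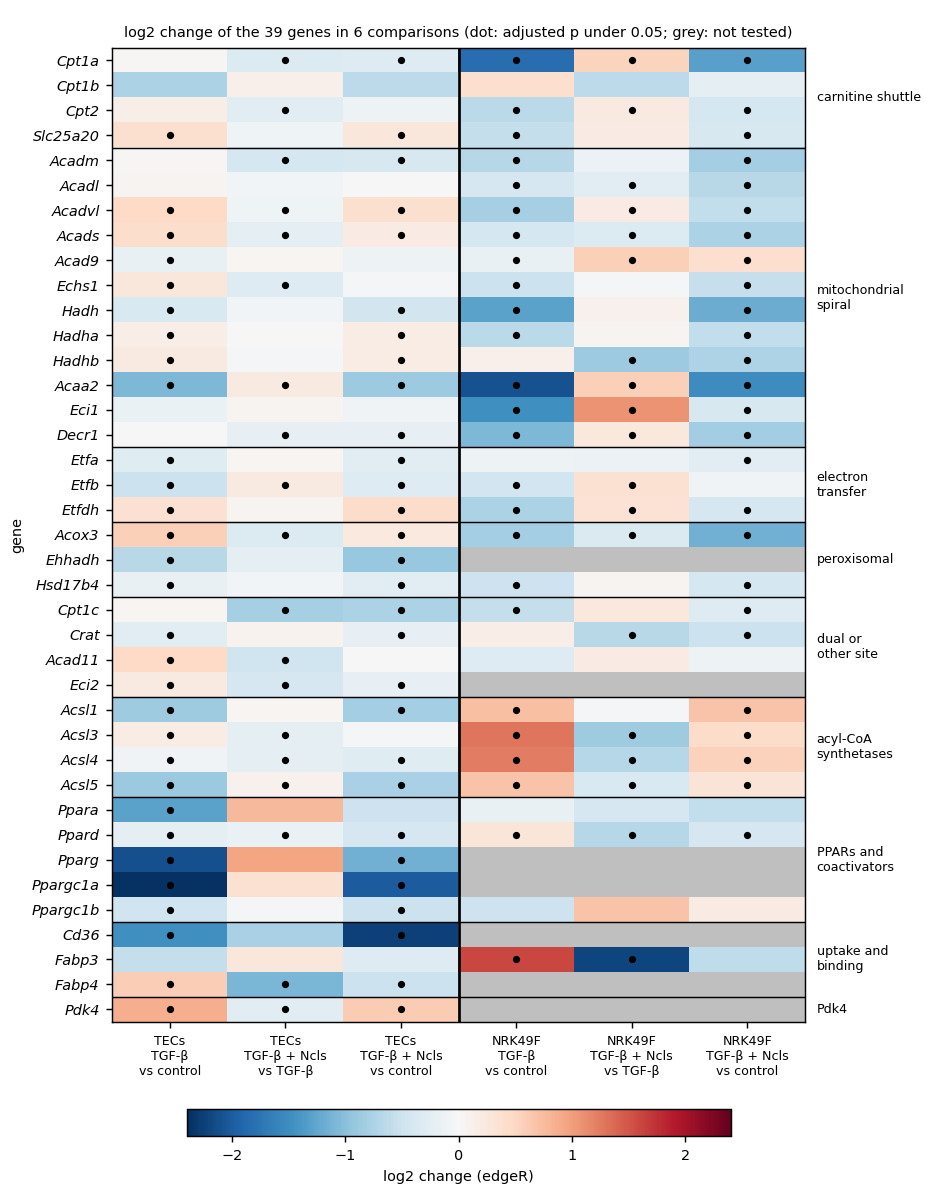
Heat map of the log2 change of the 39 genes (rows, grouped by role) in 3 comparisons in TECs and 3 in NRK49F (columns). A dot marks an adjusted p under 0.05 and grey a gene not tested. The acyl-CoA synthetases are red in NRK49F and Acsl1 and Acsl5 blue in TECs, and the mitochondrial enzymes are mostly blue in NRK49F with TGF-β and pale in TECs.

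Of the 4 carnitine shuttle genes, 3 fell with TGF-β in NRK49F and none rose, and 1 rose and none fell in TECs, where 33.7% of all genes rose and 38.0% fell in NRK49F and 34.1% and 34.9% in TECs. Cpt1a, which makes acylcarnitine at the outer mitochondrial membrane and controls entry into the spiral, stood in NRK49F at 524, 533 and 530.2 CPM in control cells, 134, 173 and 138 with TGF-β and 223, 212 and 209.9 with TGF-β and narciclasine. No library of a group overlapped another group's range: TGF-β lowered Cpt1a 3.57-fold (log2 change -1.84 ± 0.0797 (SE), adjusted p = 7.07e-11), and with narciclasine it was 1.45-fold higher than with TGF-β alone (0.54 ± 0.0785 (SE), adjusted p = 3.52e-05) while still below control (-1.298). In TECs Cpt1a was at 33.4, 34.8 and 36.7 CPM in control cells, 35.1, 35.01 and 36.3 with TGF-β and 28.7, 29.6 and 26.7 with TGF-β and narciclasine. Control and TGF-β libraries overlapped there (log2 change 0.021 ± 0.0558 (SE), adjusted p = 0.753), and the narciclasine libraries lay below both (log2 change against TGF-β -0.33 ± 0.0583 (SE), adjusted p = 9.89e-06). The response of Cpt1a to TGF-β differed between the cell kinds by 1.83 ± 0.0972 (SE), adjusted p = 1.88e-14.

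Cpt2, which hands the acyl group back to CoA inside the mitochondrion, was in NRK49F at 24.4, 24.9 and 24.6 CPM in control cells, 16.1, 17.2 and 14.2 with TGF-β and 18.6, 18.1 and 18.7 with TGF-β and narciclasine. TGF-β lowered it by a log2 change of -0.64 ± 0.0918 (SE), adjusted p = 1.66e-05, and the rise with narciclasine (0.22 ± 0.0933 (SE), adjusted p = 0.0494) was lost on leaving out any single library other than control replicate 2 or TGF-β replicate 2 (0.15 to 0.24). Slc25a20, the carrier that swaps acylcarnitine for carnitine across the inner membrane, was at 43.6, 54.9 and 48.8 CPM in control cells, 29.7, 36.8 and 32.04 with TGF-β and 35.96, 35.2 and 41.2 with TGF-β and narciclasine. It fell with TGF-β (-0.58 ± 0.101 (SE), adjusted p = 0.000112), and the narciclasine libraries overlapped those of TGF-β, with a called rise of 0.28 without TGF-β replicate 2. In TECs Slc25a20 went the other way, by 0.39, and Cpt2 was not called with TGF-β (0.14 ± 0.0677 (SE), adjusted p = 0.0745). Cpt1b, the muscle form, stayed between 0.263 and 1.70 CPM in all 18 libraries and was not called in any comparison; in the mouse 81.4% of its exon bases are shared with a same-strand gene model.

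Of the 12 enzymes of the mitochondrial spiral, 11 fell with TGF-β in NRK49F and none rose, against 38.0% and 33.7% of all genes, with a median change of -0.66. In TECs 5 rose and 3 fell, against 34.1% and 34.9%, with a median of 0.050, which became -0.080 with libraries scaled by totals alone. Summed over the 12 genes, NRK49F libraries held 1116 to 1211 CPM in control cells, 749 to 771 with TGF-β and 712 to 753 with narciclasine added. The TEC libraries held 740 to 762, then 807 to 813, then 756 to 773 CPM. With narciclasine 5 of the 12 rose and 3 fell in NRK49F (median 0.081), against 31.6% and 31.1% of all genes, and 1 rose and 5 fell in TECs (median -0.068), against 26.8% and 25.5%.

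Acaa2, the mitochondrial thiolase that closes each turn, fell in both cell kinds. In NRK49F it was at 113, 112 and 120.4 CPM in control cells, 25.96, 27.96 and 26.9 with TGF-β and 35.7, 40.6 and 44.2 with TGF-β and narciclasine. The 3 groups did not overlap, with a 4.27-fold fall (-2.09 ± 0.0792 (SE), adjusted p = 6.9e-12) and a partial rise with narciclasine (0.57 ± 0.0813 (SE), adjusted p = 2.02e-05). In TECs it was at 25.8, 25.9 and 25.1 CPM in control cells, 10.9, 12.7 and 12.8 with TGF-β and 13.8, 14.8 and 13.6 with TGF-β and narciclasine. TGF-β lowered it 2.12-fold there (-1.08 ± 0.0764 (SE), adjusted p = 7.1e-16), and the small rise with narciclasine (0.21 ± 0.0844 (SE), adjusted p = 0.0308) was lost with DESeq2, and without TGF-β replicate 1 (0.13) or replicate 1 (0.22) or 2 (0.17) of the combined treatment. The fall was larger in NRK49F by a tested difference of 0.98 ± 0.108 (SE), adjusted p = 6.04e-09.

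Eci1 moves the double bond of unsaturated chains so that the spiral can go on. Its level in NRK49F was 73.6, 70.0 and 71.5 CPM in control cells, 22.6, 25.9 and 29.6 with TGF-β and 52.8, 52.9 and 59.5 with TGF-β and narciclasine. It fell 2.76-fold with TGF-β (-1.46 ± 0.0896 (SE), adjusted p = 1.43e-09) and was 2.12-fold higher again with narciclasine (1.08 ± 0.0902 (SE), adjusted p = 9.49e-08), the largest rise of any of these genes in that comparison. In TECs Eci1 stayed between 17.5 and 23.2 CPM and was not called. Decr1, the reductase for the same kind of chain, stood in NRK49F at 19.6, 20.4 and 20.3 CPM in control cells, 8.91, 9.95 and 9.598 with TGF-β and 11.6, 10.9 and 11.2 with TGF-β and narciclasine. Its groups did not overlap, and it fell by a log2 change of -1.08 ± 0.0993 (SE), adjusted p = 1.33e-07; the rise with narciclasine had an adjusted p = 0.0495 and was lost with DESeq2 and on leaving out any single library other than TGF-β replicate 2 (0.198 to 0.272). Decr1 in TECs was level with TGF-β (-0.008) and fell with narciclasine by a log2 change of -0.19 ± 0.0525 (SE), adjusted p = 0.00216.

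The acyl-CoA dehydrogenases open the spiral, each for its own chain length. Acadvl, for very long chains, was in NRK49F at 73.04, 85.5 and 74.7 CPM in control cells, 46.9, 46.8 and 41.4 with TGF-β and 49.7, 50.7 and 54.2 with TGF-β and narciclasine. It fell with TGF-β by a log2 change of -0.79 ± 0.0773 (SE), adjusted p = 2.8e-07; a small rise with narciclasine (0.19 ± 0.0784 (SE), adjusted p = 0.0422) ended with DESeq2 and without TGF-β replicate 1 or 3 or any replicate of the combined treatment (0.13 to 0.22). In TECs the same gene rose from 66.6 to 70.2 CPM in control cells to 93.7 to 99.2 CPM (0.49 ± 0.0391 (SE), adjusted p = 3.33e-14), so that its calls were opposite and the difference was 1.25 ± 0.0859 (SE), adjusted p = 3.95e-13. In the mouse, 42.9% of its exon bases lie under the opposite-strand gene Dvl2. The strand setting of the counts is not given, so reads of the pair may not be fully told apart.

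Acadl, for long chains, stood in NRK49F at 128, 157 and 126 CPM in control cells, 98.8, 112 and 102 with TGF-β and 85.1, 86.3 and 88.3 with TGF-β and narciclasine. The 3 groups were ordered downwards without overlap, by a log2 change of -0.397 ± 0.0798 (SE), adjusted p = 0.000409 with TGF-β and by a log2 change of -0.27 ± 0.0808 (SE), adjusted p = 0.0101 with narciclasine, of which the latter ended without TGF-β replicate 2 (-0.21). Acadm, for medium chains, was at 52.8, 57.1 and 49.8 CPM in control cells, 31.2, 37.5 and 31.1 with TGF-β and 31.02, 32.7 and 26.9 with TGF-β and narciclasine. It fell by a log2 change of -0.68 ± 0.0946 (SE), adjusted p = 1.22e-05, and the narciclasine libraries overlapped those of TGF-β. Acads, for short chains, was at 36.2, 33.9 and 35.1 CPM in control cells, 25.9, 28.2 and 24.1 with TGF-β and 19.6, 21.7 and 21.1 with TGF-β and narciclasine, and fell at both steps, by a log2 change of -0.43 and -0.32. In TECs neither Acadl nor Acadm was called with TGF-β, Acads rose by 0.43 ± 0.0465 (SE), adjusted p = 1.43e-10, and Acadm fell with narciclasine by a log2 change of -0.42 ± 0.0523 (SE), adjusted p = 8.28e-09. Acad9, which also helps assemble respiratory complex I, stood apart in NRK49F, with a small fall with TGF-β (-0.17) and a rise above control with narciclasine (0.399 ± 0.0679 (SE), adjusted p = 1e-04).

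Hadh, the 3-hydroxyacyl-CoA dehydrogenase for shorter chains, was in NRK49F at 52.8, 59.05 and 51.4 CPM in control cells, 24.6, 18.7 and 23.4 with TGF-β and 24.8, 22.7 and 24.4 with TGF-β and narciclasine. It fell 2.44-fold (-1.29 ± 0.0991 (SE), adjusted p = 1.81e-08) and the narciclasine libraries overlapped those of TGF-β. In TECs Hadh fell by a log2 change of -0.37 ± 0.0469 (SE), adjusted p = 4.77e-09, a smaller fall by 0.89 ± 0.104 (SE), adjusted p = 1.85e-08. Echs1, the hydratase for short chains, moved in opposite directions with TGF-β, by 0.27 in TECs and -0.52 in NRK49F.

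Hadha and Hadhb encode the α and β subunits of the trifunctional protein, which carries out the last 3 steps for long chains, and they parted in NRK49F. Hadha was at 306, 347 and 311 CPM in control cells, 204, 212 and 199.9 with TGF-β and 209.8, 211 and 221 with TGF-β and narciclasine, and fell with TGF-β (-0.65 ± 0.0574 (SE), adjusted p = 8.97e-08) with no call for narciclasine (0.059 ± 0.0575 (SE), adjusted p = 0.387). Hadhb was at 178, 188 and 170.1 CPM in control cells, 208, 180.3 and 193 with TGF-β and 109, 106 and 105 with TGF-β and narciclasine. Its control and TGF-β libraries overlapped (0.12 ± 0.0604 (SE), adjusted p = 0.0989), and a rise was called with DESeq2 (0.154), without control replicate 2 (0.15), without TGF-β replicate 2 (0.17) or without replicate 2 of all groups (0.195, adjusted p = 0.000264). Narciclasine lowered it 1.82-fold (-0.86 ± 0.0614 (SE), adjusted p = 1.91e-08). The ratio of Hadhb to Hadha counts within a library, which no scaling of libraries can move, was 0.583, 0.542 and 0.547 in control NRK49F cells, 1.02, 0.851 and 0.966 with TGF-β and 0.518, 0.503 and 0.475 with narciclasine added. In TECs it kept to 0.542 to 0.601 in all 9 libraries, and both genes rose slightly with TGF-β, by 0.16 and 0.22. The ratio was looked at after its genes' values were seen and carries no test.

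**Figure D2:**
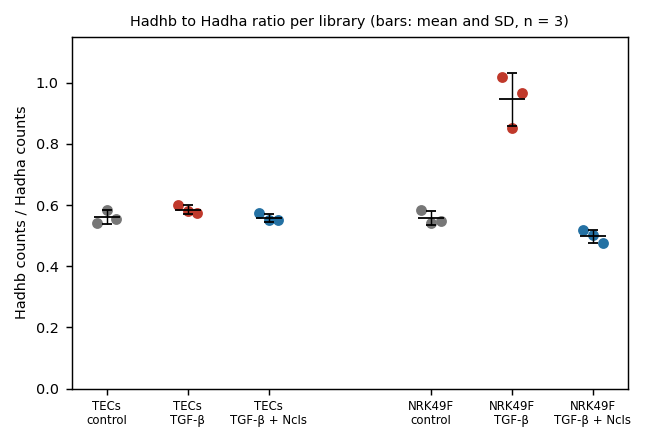
Ratio of Hadhb counts to Hadha counts in each library (points, y axis from 0), with the mean and SD of 3 libraries, for the 3 groups of TECs and of NRK49F. The NRK49F libraries with TGF-β lie at 0.851 to 1.02 and all other libraries at 0.475 to 0.601.

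In the mouse these genes lie head to head on chromosome 5, Hadha on the minus and Hadhb on the plus strand, with 85 bases between their annotated starts (GRCm38). The interval is shown because it is all the sequence that separates the pair; it is 69.4% G and C, and capitals mark GGGCGG, searched on both strands. It holds 2 copies, and 23.3% of 27025 RefSeq promoter windows (GRCm38.p6) of the same length hold at least 1. It holds no CCAAT on either strand, which 17% of those windows do. Rat coordinates were not used here, so whether the rat pair is arranged alike was not examined.
Hadha-Hadhb interval, GRCm38 chr5:30155163-30155247, plus strand: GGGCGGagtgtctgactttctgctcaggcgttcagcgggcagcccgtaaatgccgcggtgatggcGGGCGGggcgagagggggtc

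Electron transfer flavoprotein (Etfa and Etfb) takes electrons from the dehydrogenases, and Etfdh passes them to ubiquinone. Etfdh was in NRK49F at 47.3, 50.2 and 49.9 CPM in control cells, 33.2, 25.3 and 28.6 with TGF-β and 37.5, 37.3 and 36.4 with TGF-β and narciclasine. The 3 groups did not overlap, with a fall with TGF-β (-0.76 ± 0.0878 (SE), adjusted p = 1.73e-06) and a partial rise with narciclasine (0.35 ± 0.0888 (SE), adjusted p = 0.00302). In TECs Etfdh rose with TGF-β instead (0.36 ± 0.043 (SE), adjusted p = 1.54e-09), and the responses differed by 1.09 ± 0.0944 (SE), adjusted p = 5.4e-11. Etfb fell with TGF-β in both cell kinds, by a log2 change of -0.52 and -0.45, and rose with narciclasine in both, by 0.21 and 0.36; a same-strand gene model shares 58.2% of its mouse exon bases. Etfa fell in TECs (-0.29) and was not called in NRK49F (-0.13).

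Of the 3 peroxisomal enzymes 1 rose and 2 fell with TGF-β in TECs, and both tested in NRK49F fell; 3 or fewer genes give no share to set against the 34.1% and 34.9% of all TEC genes or the 38.0% of all NRK49F genes. Acox3, the oxidase that opens the peroxisomal spiral for branched chains, was at 21.5, 24.8 and 24.96 CPM in control cells, 34.3, 34.7 and 37.5 with TGF-β and 28.8, 28.3 and 27.4 with TGF-β and narciclasine in TECs. Control, narciclasine and TGF-β libraries followed upwards without overlap, with a rise with TGF-β (0.57 ± 0.0619 (SE), adjusted p = 1.24e-10) and a fall with narciclasine (-0.34 ± 0.0613 (SE), adjusted p = 1.45e-05). In NRK49F Acox3 was at 24.7, 25.4 and 24.5 CPM in control cells, 14.8, 14.8 and 13.1 with TGF-β and 10.6, 11.2 and 11.9 with TGF-β and narciclasine. There it fell at both steps, by a log2 change of -0.81 ± 0.0936 (SE), adjusted p = 1.72e-06 and then by a log2 change of -0.34 ± 0.099 (SE), adjusted p = 0.0074. The responses to TGF-β differed between the cell kinds by 1.35 ± 0.111 (SE), adjusted p = 1.78e-11, and those to narciclasine were not called different (0.071 ± 0.117 (SE), adjusted p = 0.681).

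Hsd17b4, the D-bifunctional protein that carries out the next steps of the spiral, was at 162, 164 and 174 CPM in control cells, 148, 134 and 157 with TGF-β and 143, 136 and 140.2 with TGF-β and narciclasine in TECs. It fell by a log2 change of -0.18 ± 0.0444 (SE), adjusted p = 0.0013 with TGF-β, and the narciclasine libraries lay among those with TGF-β, with a called fall of -0.14 without TGF-β replicate 2. In NRK49F it was at 92.05, 95.6 and 93.96 CPM in control cells, 65.9, 71.9 and 62.8 with TGF-β and 70.1, 69.9 and 69.01 with TGF-β and narciclasine. All 6 treated libraries were below the 3 controls, with a fall of -0.49 ± 0.0606 (SE), adjusted p = 3.53e-06 and no call for narciclasine (0.059 ± 0.0611 (SE), adjusted p = 0.414). Ehhadh, the L-bifunctional enzyme and a classic PPARα target in rodent liver, was in TECs at 6.37, 5.56 and 6.36 CPM in control cells, 3.75, 4.05 and 3.72 with TGF-β and 3.71, 3.296 and 2.65 with TGF-β and narciclasine. It fell 1.58-fold with TGF-β (-0.66 ± 0.145 (SE), adjusted p = 0.00011) and was not called with narciclasine (-0.24 ± 0.162 (SE), adjusted p = 0.221). NRK49F gave 1 Ehhadh count over the control libraries, 0 over the TGF-β libraries and 1 over the narciclasine libraries, so no change was detectable at this depth.

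Set side by side, the mitochondrial and peroxisomal enzymes had close medians in NRK49F with TGF-β, -0.66 for the 12 mitochondrial and -0.65 for the 2 tested peroxisomal enzymes. Per library, the mean log2 level of the mitochondrial enzymes over the control mean was -0.822, -0.748 and -0.795 with TGF-β, and that of the peroxisomal enzymes -0.632, -0.567 and -0.754. With narciclasine these means were -0.738, -0.693 and -0.632 for the mitochondrial and -0.827, -0.788 and -0.756 for the peroxisomal enzymes. Both classes stayed well below control in all 6 treated libraries, with the peroxisomal means above the mitochondrial ones with TGF-β and below them with narciclasine. In TECs the means with TGF-β were -0.020, 0.002 and -0.009 for the mitochondrial and -0.112, -0.117 and -0.044 for the peroxisomal enzymes, and with narciclasine -0.095, -0.102 and -0.103 against -0.220, -0.308 and -0.414. With 2 or 3 peroxisomal genes these are descriptions and carry no test. Their medians turn on single genes: adding the dual-site enzymes Acad11, Eci2 and Crat moved the TEC median with TGF-β from -0.182 to 0.018. In NRK49F, where Eci2 was not analysed, adding Acad11 and Crat moved the median with TGF-β from -0.65 to -0.40.

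**Figure D3:**
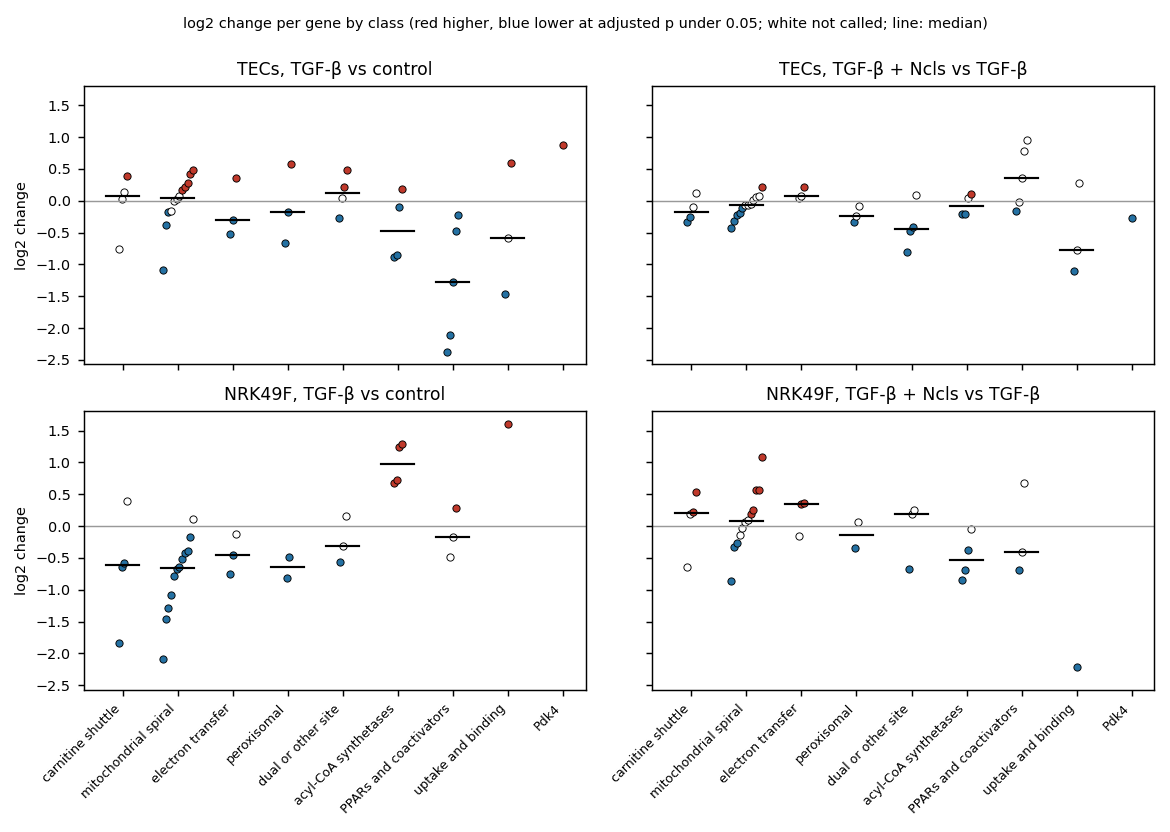
Log2 change of each gene (points) by class (x axis), for TGF-β against control and for added narciclasine against TGF-β, in TECs (top) and NRK49F (bottom). Red points rose and blue points fell at an adjusted p under 0.05, white points were not called, and the line is the class median, at 0.98 for the acyl-CoA synthetases and -0.66 for the mitochondrial spiral in NRK49F with TGF-β.

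The enzymes of dual or other site went separate ways. Crat, the carnitine acetyltransferase of mitochondria and peroxisomes, was in NRK49F at 64.2, 60.6 and 64.03 CPM in control cells, 65.8, 77.5 and 67.8 with TGF-β and 45.5, 43.5 and 43.2 with TGF-β and narciclasine. Its TGF-β libraries lay just above the controls without a call (0.16 ± 0.0697 (SE), adjusted p = 0.0505); the rise was called with DESeq2 (0.199) and without TGF-β replicate 1 (0.21). Narciclasine lowered it below both (-0.67 ± 0.071 (SE), adjusted p = 1.03e-06). In TECs Crat fell with TGF-β by a log2 change of -0.28 and the narciclasine libraries overlapped both other groups. Acad11, an acyl-CoA dehydrogenase of longer chains, rose in TECs by 0.48 ± 0.0574 (SE), adjusted p = 1.72e-09 and fell back with narciclasine by a log2 change of -0.48 ± 0.0582 (SE), adjusted p = 5.6e-09, level with control; it was not called in NRK49F. Eci2 in TECs rose by 0.22 and fell by a log2 change of -0.41. Cpt1c, the form of brain and of the endoplasmic reticulum, was in TECs at 5.63, 4.06 and 3.78 CPM in control cells, 4.57, 4.59 and 4.49 with TGF-β and 2.95, 1.68 and 3.14 with TGF-β and narciclasine. It was level with TGF-β and fell 1.75-fold with narciclasine (-0.804 ± 0.188 (SE), adjusted p = 0.000421), whereas in NRK49F it fell with TGF-β (-0.56) and was not called with narciclasine.

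The acyl-CoA synthetases, which activate fatty acids for oxidation or for lipid synthesis, all rose with TGF-β in NRK49F, with a median of 0.98, where 33.7% of all genes rose, and 3 of 4 fell in TECs, where 34.9% did. Acsl1 was in NRK49F at 44.7, 47.7 and 50.5 CPM in control cells, 74.1, 81.4 and 81.2 with TGF-β and 77.4, 73.8 and 78.8 with TGF-β and narciclasine. It rose 1.66-fold (0.73 ± 0.0668 (SE), adjusted p = 1.31e-07) and had no call for narciclasine, whose libraries overlapped those of TGF-β. In TECs Acsl1 was at 31.8, 30.6 and 29.98 CPM in control cells, 16.7, 17.7 and 16.9 with TGF-β and 17.9, 18.7 and 15.9 with TGF-β and narciclasine. There it fell 1.8-fold (-0.85 ± 0.0674 (SE), adjusted p = 2.57e-14), and narciclasine again left no call. The difference between the cell kinds was -1.605 ± 0.0931 (SE), adjusted p = 9.12e-15.

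Acsl5, which sits at mitochondria and the endoplasmic reticulum, was in TECs at 230.4, 231 and 236 CPM in control cells, 124, 129.5 and 124 with TGF-β and 136, 137 and 131 with TGF-β and narciclasine. It fell 1.85-fold (-0.89 ± 0.0308 (SE), adjusted p = 4.96e-26); the rise with narciclasine was small (0.1 ± 0.0322 (SE), adjusted p = 0.00863) and was lost without TGF-β replicate 1 or 3 or replicate 1 or 2 of the combined treatment (0.078 to 0.081). In NRK49F Acsl5 was at 156, 154 and 154 CPM in control cells, 246, 258 and 237 with TGF-β and 191, 192 and 189.6 with TGF-β and narciclasine. The 3 groups did not overlap: it rose 1.6-fold (0.68 ± 0.0498 (SE), adjusted p = 1.15e-08) and fell part of the way with narciclasine (-0.37 ± 0.0494 (SE), adjusted p = 1.1e-05). The difference in response to TGF-β was -1.59 ± 0.0573 (SE), adjusted p = 2.12e-19.

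Acsl3, known from lipid droplets, and Acsl4, which prefers polyunsaturated chains, gained most in NRK49F. Acsl3 was at 71.5, 75.2 and 74.96 CPM in control cells, 173, 196 and 171 with TGF-β and 102, 97.3 and 101 with TGF-β and narciclasine. It rose 2.43-fold (1.28 ± 0.0628 (SE), adjusted p = 1.12e-10) and fell back with narciclasine (-0.85 ± 0.0617 (SE), adjusted p = 2.4e-08) to a level still above control. Acsl4 was at 65.4, 82.1 and 67.1 CPM in control cells, 173, 178 and 155 with TGF-β and 106, 107 and 102 with TGF-β and narciclasine. It followed the same course, 2.36-fold up (1.24 ± 0.0814 (SE), adjusted p = 4.01e-09) and then down (-0.68 ± 0.0796 (SE), adjusted p = 3.34e-06). In TECs the changes of both were small, 0.18 and -0.093 with TGF-β and -0.21 for each with narciclasine. Summed over the 4 genes, the libraries held 338 to 359 CPM in control NRK49F cells, 645 to 713 with TGF-β and 470.0 to 478 with narciclasine, and in TECs 595 to 608, then 471 to 483, then 429 to 450.4 CPM.

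**Figure D4:**
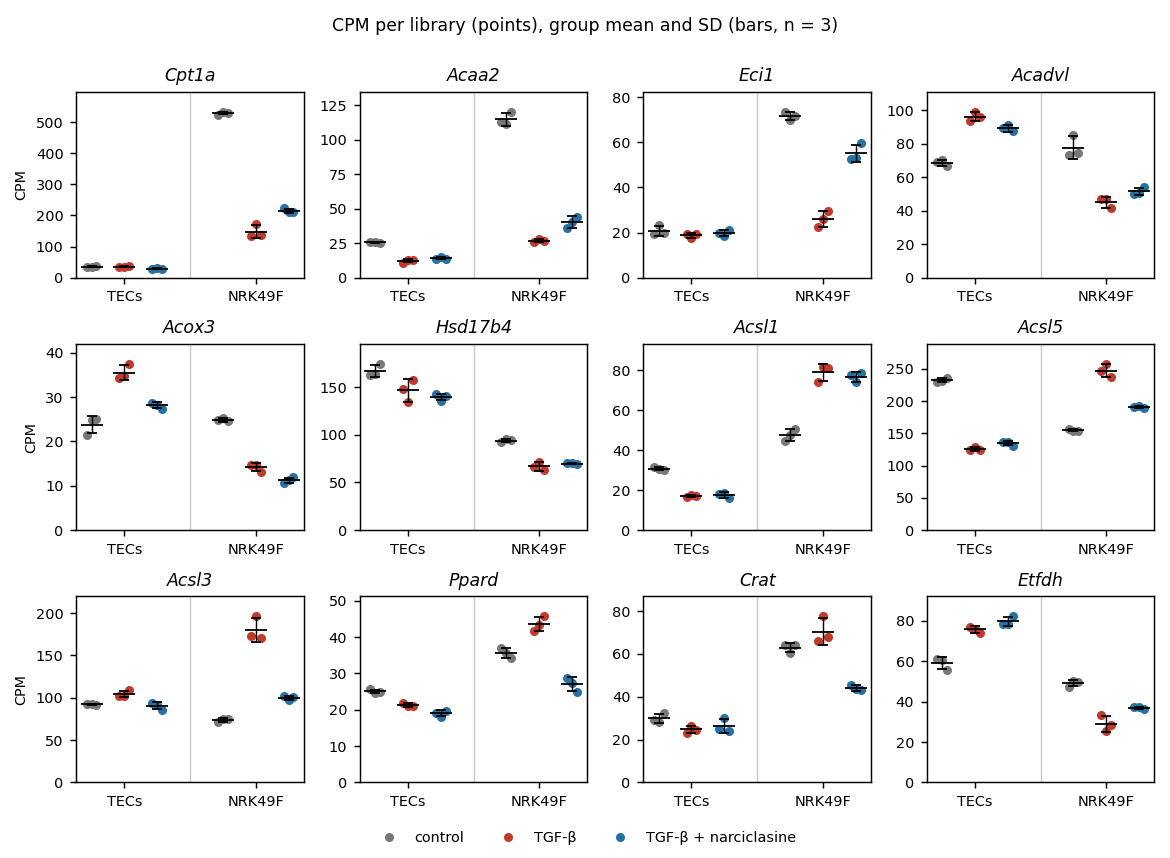
CPM of 12 genes in each library (points) with the mean and SD of 3 libraries, in control cells (grey), with TGF-β (red) and with TGF-β and narciclasine (blue), in TECs and NRK49F; each y axis starts at 0. Acsl1 and Acsl5 go down in TECs and up in NRK49F with TGF-β, and Cpt1a drops in NRK49F from 524 to 533 CPM down to 134 to 173 CPM.

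The regulators fell in TECs, each of the 5 with TGF-β, where 34.9% of all genes fell. Their median of -1.28 is the value of Ppara, whose call did not hold in several alternatives. The falls of Ppara and Pparg were partly built into the filter. Ppargc1a, the coactivator that drives mitochondrial biogenesis and oxidation genes, was at 7.796, 8.305 and 9.04 CPM in control cells, 1.69, 1.45 and 1.68 with TGF-β and 1.97, 2.16 and 2.15 with TGF-β and narciclasine. It fell 5.17-fold (-2.37 ± 0.159 (SE), adjusted p = 1.35e-16), the largest fall with TGF-β of the 39 genes in TECs, and all narciclasine libraries lay just above those of TGF-β without a call (0.36 ± 0.201 (SE), adjusted p = 0.128). In NRK49F Ppargc1a gave 33 counts over the control libraries, 1 over the TGF-β libraries and 1 over the narciclasine libraries. It was below the filter, and the control to TGF-β ratio was 29.3, with a 95% exact interval of 4.9 to 1190 that covers counting error only. Ppargc1b, its relative, was low, and fell in TECs by a log2 change of -0.48 with overlapping libraries.

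Pparg, the receptor best known from fat cells, was in TECs at 1.54, 1.31 and 1.77 CPM in control cells, 0.3197, 0.484 and 0.272 with TGF-β and 0.492, 0.918 and 0.661 with TGF-β and narciclasine. It fell 4.33-fold (-2.11 ± 0.368 (SE), adjusted p = 3.4e-06), and the narciclasine libraries lay between the other groups without a call (0.95 ± 0.43 (SE), adjusted p = 0.0606), which was made without TGF-β replicate 2 (1.18) or replicate 1 of the combined treatment (1.16). Its levels are near the filter, which no TGF-β library reached, so its fall and the adjusted p were partly built in. NRK49F gave 3, 3 and 0 Pparg counts over the groups. Ppara, the receptor of fasting and of liver oxidation, was at 0.284, 0.676 and 0.574 CPM in control cells, 0.137, 0.181 and 0.318 with TGF-β and 0.358, 0.594 and 0.165 with TGF-β and narciclasine in TECs. The libraries overlapped, and the fall (-1.28 ± 0.544 (SE), adjusted p = 0.035) ended with DESeq2 (adjusted p = 0.094) and without control replicate 2 or 3 or TGF-β replicate 1 or 2 (-1.01 to -1.22). In edgeR it also ended with no count filter (adjusted p = 0.0734) and with the replicate block (adjusted p = 0.056). In NRK49F Ppara was at 2.52, 4.94 and 3.54 CPM in control cells, 3.74, 3.31 and 2.68 with TGF-β and 2.38, 2.61 and 2.32 with TGF-β and narciclasine. It had no call, but without control replicate 1 the combined treatment was called lower than control (-0.79, adjusted p = 0.0142).

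Ppard, the most widely expressed of the 3 receptors, was in TECs at 25.6, 24.5 and 25.01 CPM in control cells, 21.97, 20.98 and 21.02 with TGF-β and 19.1, 18.1 and 19.8 with TGF-β and narciclasine. The groups stepped down without overlap, by a log2 change of -0.23 ± 0.0646 (SE), adjusted p = 0.00198 and then by a log2 change of -0.17 ± 0.0682 (SE), adjusted p = 0.038; the latter call ended with DESeq2, and without TGF-β replicate 1 (-0.155) or replicate 1 (-0.18) or 2 (-0.15) of the combined treatment. In NRK49F it was at 37.0, 35.6 and 34.2 CPM in control cells, 41.7, 43.4 and 45.7 with TGF-β and 28.8, 27.4 and 24.9 with TGF-β and narciclasine. Here TGF-β raised it (0.29 ± 0.0766 (SE), adjusted p = 0.00323; 0.105 with adjusted p = 0.235 by library totals alone) and narciclasine took it below control (log2 change against TGF-β -0.69 ± 0.0779 (SE), adjusted p = 2.15e-06). The responses to TGF-β differed by a log2 change of -0.55 ± 0.0971 (SE), adjusted p = 1.52e-05.

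Over these TEC groups the summed proximal tubule markers stood at 156 to 157 CPM in control cells, 91.5 to 96.3 with TGF-β and 156 to 162 with narciclasine, and Lrp2 makes up most of that sum. Of the 7 of 12 tested, 4 fell and none rose with TGF-β, against 34.9% and 34.1% of all genes. With narciclasine 2 rose and 1 fell against TGF-β (median -0.021), where 26.8% and 25.5% of all genes did. Compared with control, the combined treatment left 1 higher and 5 lower (median -1.162), where 32.4% and 30.6% of all genes were. Whether a change in tubule cell makeup has a part in the fall of the regulators was not tested.

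PPARs and their partner RXR bind pairs of the core AGGTCA set 1 base apart. Among the 39 genes 31 had a RefSeq promoter (GRCm38.p6), and the 250 bases before the start were searched on both strands. The core was found in 7 of the 31, or 22.6%, against 13.8% of all 27025 promoters. No member held the direct repeat with 1 base between its cores, which 0.037% of all promoters do, or its looser form with the fourth base of each core left free (0.333%). The cores of 6 genes are shown with up to 20 bases on each side within the searched bases, in the direction of transcription, as examples of the core and what flanks it. The Acadm core lies 249 bases before the start, so its window is cut at the edge of the searched bases. The Pparg core is not shown because its window lies wholly in annotated exon. Capitals mark AGGTCA, or TGACCT where it lies on the other strand. The core is shared by genes whose changes differ, such as Cpt1a and Acadvl, and a match is not evidence of binding.
Cpt1a, GRCm38.p6 chr19:3323187-3323232, plus strand: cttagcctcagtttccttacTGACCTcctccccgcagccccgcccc
Acadvl, GRCm38.p6 chr11:70015490-70015535, minus strand: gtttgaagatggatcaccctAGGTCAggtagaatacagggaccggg
Acadm, GRCm38.p6 chr3:153944867-153944893, minus strand: gTGACCTtcgggctccggtgacactgg
Echs1, GRCm38.p6 chr7:140116479-140116524, minus strand: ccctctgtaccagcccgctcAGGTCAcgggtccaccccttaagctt
Cpt1c, GRCm38.p6 chr7:44974972-44975017, minus strand: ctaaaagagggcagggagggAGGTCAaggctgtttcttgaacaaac
Cd36, GRCm38.p6 chr5:17836099-17836144, minus strand: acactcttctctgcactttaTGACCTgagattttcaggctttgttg

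Cd36, a membrane receptor that takes up fatty acids, was low in TECs, at 1.14, 1.203 and 1.82 CPM in control cells, 0.594, 0.544 and 0.363 with TGF-β and 0.358, 0.216 and 0.276 with TGF-β and narciclasine. It fell with TGF-β (-1.47 ± 0.353 (SE), adjusted p = 0.000361), and against control the combined treatment left it 4.74-fold lower (-2.25 ± 0.396 (SE), adjusted p = 5.12e-06). No library of the combined treatment was at the filter's level, so its fall against control was partly built in. No narciclasine library reached the lowest TGF-β library, and the further step from TGF-β was not called (-0.78 ± 0.482 (SE), adjusted p = 0.177). Fabp4, a fatty acid binding protein of fat cells, macrophages and small vessels, was in TECs at 3.13, 3.23 and 2.77 CPM in control cells, 3.88, 3.87 and 5.95 with TGF-β and 2.64, 1.68 and 2.04 with TGF-β and narciclasine. It rose with TGF-β (0.59 ± 0.18 (SE), adjusted p = 0.00384), which ended without TGF-β replicate 3 (log2 change 0.34, adjusted p = 0.128), and fell 2.15-fold with narciclasine (-1.102 ± 0.194 (SE), adjusted p = 8.12e-06). In NRK49F Fabp4 gave 3, 12 and 1 counts over the 3 groups.

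Markers of other cells moved beside these genes. In TECs the 16 macrophage markers summed to 50.0 to 51.2 CPM in control cells, 78.5 to 84.6 with TGF-β and 32.8 to 33.1 with narciclasine; 11 of the 15 tested rose with TGF-β, against 34.1% of all genes, and 13 fell with narciclasine, against 25.5%. The 8 endothelial markers summed to 118 to 121, 137 to 142 and 125 to 129 CPM. The 8 fibroblast markers summed to 91.4 to 93.3, 324 to 347 and 118 to 131 CPM; of the 6 tested, 5 rose and none fell with TGF-β, and none rose and 5 fell with narciclasine. The adipocyte markers Adipoq, Plin1, Cidec and Cfd had no count in any TEC library. Fabp4, like the macrophage, endothelial and fibroblast sums, was higher with TGF-β and lower again with narciclasine, and Cd36 was not. With narciclasine Fabp4 and the macrophage sum lay below control, and the endothelial and fibroblast sums above it. Col1a1 and Col1a2, at averages of 107 and 43.3 CPM, make up most of the TEC fibroblast sum. In NRK49F the 7 fibroblast markers counted summed to 10080 to 11720 CPM in control cells, 33760 to 35810 with TGF-β and 16770 to 17380 with narciclasine; of the 5 tested, 3 rose and 2 fell with TGF-β, against 33.7% and 38.0% of all genes, and all 5 fell with narciclasine, against 31.1%. The 15 macrophage markers counted there summed to 61.2, 105.3 and 61.2 CPM in control replicates 1, 2 and 3. With TGF-β they summed to 63.2 to 72.8 CPM and with narciclasine to 43.1 to 54.5. Cd14 makes up most of that sum, at an average of 59.2 CPM, while Ptprc and Csf1r averaged 0.129 and 0.273 CPM. The 12 proximal tubule markers also stood highest in control replicate 2, at 31.3, 79.2 and 29.9 CPM over the controls. They summed to 22.2 to 22.9 with TGF-β and 5.6 to 7.2 with narciclasine. Aqp1 and Cubn, at averages of 18.4 and 4.51 CPM, make up most of the tubule sum, and Lrp2 averaged 0.0147 CPM. The part of these cells or of these markers in the changes of the 39 genes was not tested.

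Fabp3, the fatty acid binding protein of heart muscle, was in NRK49F at 0.4797, 0.5696 and 0.305 CPM in control cells, 1.18, 1.23 and 1.76 with TGF-β and 0.465, 0.272 and 0.133 with TGF-β and narciclasine. The TGF-β libraries lay above all others. The filter's level was reached in those 3 libraries alone, so no test is given. In TECs Fabp3 was not called. Pdk4, the kinase that shuts off pyruvate dehydrogenase and spares glucose when fat is burned, was in TECs at 8.93, 8.46 and 9.28 CPM in control cells, 15.8, 18.6 and 14.7 with TGF-β and 13.6, 13.9 and 12.8 with TGF-β and narciclasine. It rose 1.83-fold with TGF-β (0.88 ± 0.0948 (SE), adjusted p = 1.3e-10) and fell part of the way with narciclasine (-0.27 ± 0.0902 (SE), adjusted p = 0.0109), although no longer called without TGF-β replicate 2 (-0.19) or replicate 3 of the combined treatment (-0.24). NRK49F gave 1, 1 and 2 Pdk4 counts over the groups, too few to show a change.

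Levels can be compared between genes only per length, taken here as all annotated mouse exons of a gene together. Exons not used in these cells count in that length, so the order is approximate. In control TECs Acadl was highest at 74.0 ± 2.05 CPM per kb of exon (SD, n = 3), then Hsd17b4 at 49.0 ± 1.89, Acsl5 at 47.8 ± 0.699 and Acsl4 at 45.4 ± 1.36. Hsd17b4 and Acsl5 did not differ beyond their spread. The other peroxisomal enzymes were far lower, Acox3 at 2.06 ± 0.169 and Ehhadh at 2.05 ± 0.156, and Ppara was lowest at 0.133 ± 0.0529. The exon lengths of Acox3 and Ehhadh were 11521 and 2981 bases. Before division by length they averaged 23.8 and 6.1 CPM, and Hsd17b4 166.8 CPM. With TGF-β Acsl5 dropped from the third to the seventh place and Acaa2 from the tenth to the eighteenth.

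Responses of the cell kinds were compared through an interaction term over all 18 libraries on 12206 genes with matching symbols, which stand for orthology. With TGF-β, 26 of 37 tested members differed, where 61.6% of all matched genes did, and with narciclasine 18 of 37, where 46.9% did. Both counts include Fabp3, whose change in NRK49F was partly built into the filter. In the TGF-β comparison 11 of the 32 members tested in both cell kinds, or 34.4%, were called in opposite directions, where 26.7% of all 9914 genes tested in both were: Acsl1, Acsl4, Acsl5 and Ppard went down in TECs and up in NRK49F, and Slc25a20, Acadvl, Acads, Echs1, Hadha, Etfdh and Acox3 the other way round. With narciclasine Cpt1a, Cpt2, Acadvl, Decr1 and Acsl5 had opposite calls, 15.6% of the 32 where 10.2% of all genes had them; for Cpt2, Acadvl and Decr1 the NRK49F call was lost on leaving out most single libraries. The shares are near or somewhat above those of all genes.

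**Figure D5:**
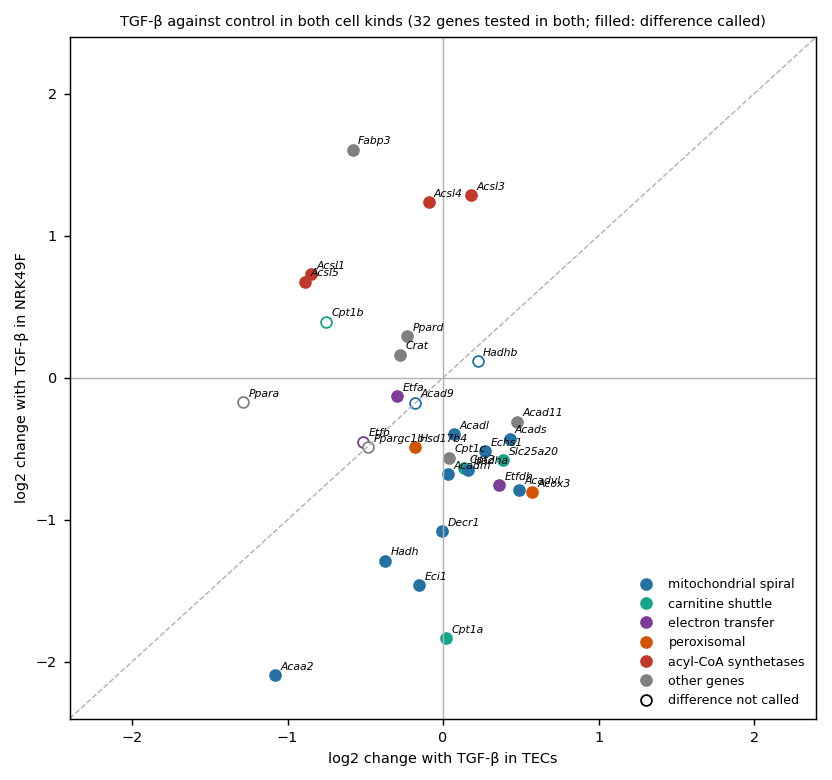
Log2 change with TGF-β in TECs (x axis) and in NRK49F (y axis) for the 32 genes tested in both, coloured by class; filled points have a called difference between the cell kinds, and the dashed line marks equal change. The acyl-CoA synthetases lie at 0.68 or above on the y axis, and most mitochondrial enzymes lie below 0 on the y axis and near 0 on the x axis.

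Genes of the pathway outside the 39 were counted from 6 lists, to be read against the shares of all genes: with TGF-β 34.1% rose and 34.9% fell in TECs and 33.7% and 38.0% in NRK49F, and with narciclasine 26.8% and 25.5%, then 31.6% and 31.1%. Of the other peroxisomal oxidation genes, 5 of 20 tested rose and 5 fell with TGF-β in TECs, and none of 17 rose and 14 fell in NRK49F, with medians of -0.083 and -0.71. In TECs the largest changes were Slc27a2, an acyl-CoA synthetase of very long chains (-2.13), and Acox2, the oxidase of bile acid side chains (1.896). In NRK49F they were Ech1, a dienoyl-CoA isomerase (-2.05), Abcd2 (-1.66), Pecr (-1.299) and Phyh (-1.23). With narciclasine 2 rose and 8 fell in TECs, and 4 rose and 5 fell in NRK49F. Of the peroxins, which build peroxisomes, 4 of 16 rose and 1 fell in TECs, all between -0.34 and 0.37; in NRK49F 1 of 15 rose and 8 fell with TGF-β, and 8 rose and 2 fell with narciclasine. Among them Pex14 had log2 changes of -1.34 and then 1.27, and Pex10 of -1.12 and then 1.199.

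Of the other mitochondrial oxidation genes, 4 of 20 rose and 9 fell with TGF-β in TECs, and 3 of 18 rose and 12 fell in NRK49F. Acsf2 fell in TECs (-0.69) and rose in NRK49F (1.63), and Hibch (-1.59) and Acad10 (-1.55) fell in NRK49F. With narciclasine 1 rose and 7 fell in TECs, and 6 rose and 8 fell in NRK49F, where log2 changes ran from -3.814 to 1.031. Other known PPAR targets split in TECs, with 5 of 14 rising and 6 falling: Cyp4a12b, a fatty acid hydroxylase, fell (-3.46) and rose again with narciclasine (1.97), Lpl fell (-1.25), and the hormone gene Fgf21 rose (2.38). In NRK49F 2 of 7 rose and 3 fell, among them Vnn1 (-4.91), Txnip (-1.32) and Plin2 (-0.87), none of which was called back with narciclasine.

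Among PPAR partners and energy sensors, 5 of 21 rose and 8 fell in TECs, and 3 of 16 rose and 10 fell in NRK49F. The acetyl-CoA carboxylases make malonyl-CoA, which inhibits the carnitine step: Acacb (-1.89) and Acaca (-0.32) fell in TECs, and Acaca rose in NRK49F (1.45). Rxra, the partner of the PPARs, fell in NRK49F (-1.105), and Prkaa2, a catalytic subunit of AMP-activated kinase, fell in TECs (-0.78) and NRK49F (-1.33) and rose with narciclasine in both, by 0.499 and 1.75. Of the other uptake and lipolysis genes, 7 of 13 rose and 2 fell in TECs, the largest rises being those of the synthetases Acsl6 (2.56) and Acsbg1 (1.897). In NRK49F 1 of 8 rose and 5 fell, with the largest fall for Lipa (-0.64).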

How the data were processed

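Poly(A) RNA was sequenced from 18 libraries, 3 in each of 6 groups set by the labels. The authors deposited raw counts per gene for each cell kind; per the submitters' processing notes these involved HISAT2 2.1.0, featureCounts, DESeq2 and the mm10 build. Neither the rat build nor the strand setting is given in the sources used here. Counts were tested with edgeR 4.0.16 in R 4.3.3 (TMM factors, filterByExpr, robust quasi-likelihood fit over the 9 libraries of a cell kind, Benjamini-Hochberg adjustment over all genes tested). The cell kind difference was an interaction over the 18 libraries. Alternatives were DESeq2 1.42.0, other scalings, no filter, fits on the groups compared alone, left-out libraries, class borders and a replicate block. Replicate numbers do not show shared cultures, so p-values measure the spread between these libraries. Genes described with every library's value were those called with a log2 change of at least 0.58 in size, plus Cpt1a, the peroxisomal enzymes and the PPAR regulators; up to 4 called genes were named from each further list. Members and lists were chosen with earlier results of these data known. The procedure was tested on simulated data. Mouse coordinates are from GENCODE (GRCm38) and promoters from RefSeq (GRCm38.p6). Protein sequences were not used here.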

Additional observations from a re-analysis of the deposited data

Results flagged for a closer look

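Of the genes described with every library's value, a response is given here where it differed between TECs and NRK49F by the interaction test of edgeR at an adjusted p under 0.05. Values are the log2 change in TECs minus that in NRK49F. With TGF-β the difference was above 0, a change more upward in TECs, for the shuttle genes Cpt1a (1.83), Slc25a20 (0.94) and Cpt2 (0.74) and for Cpt1c (0.57). The same held for the mitochondrial enzymes Eci1 (1.28), Acadvl (1.25), Decr1 (1.05), Acaa2 (0.98), Hadh (0.89), Acads (0.83), Hadha (0.78), Acadm (0.68) and Acadl (0.44), for Etfdh (1.09) and for the peroxisomal enzymes Acox3 (1.35) and Hsd17b4 (0.28). It was below 0 for the acyl-CoA synthetases Acsl1 (-1.605), Acsl5 (-1.59), Acsl4 (-1.36) and Acsl3 (-1.14), and for Fabp3 (-2.22), Ppard (-0.55) and Crat (-0.47). The Fabp3 levels were under 2 CPM in both cell kinds, and in NRK49F only its TGF-β libraries reached the filter's level. Its differences with TGF-β and with narciclasine were thus partly built in. Cpt1c was no longer called without replicate 2 of the NRK49F groups (0.408, adjusted p = 0.0702).

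With narciclasine added to TGF-β the difference was below 0 for Cpt1c (-0.998), Eci1 (-0.95), Cpt1a (-0.802), Cpt2 (-0.41), Decr1 (-0.38), Acaa2 (-0.297) and Acadvl (-0.24), and above 0 for Fabp3 (2.54), Hadhb (0.87), Crat (0.82), Acsl3 (0.7), Ppard (0.58), Acsl4 (0.54), Acsl5 (0.53) and Acadl (0.27). These are 23 of the 30 such genes with TGF-β, where 61.6% of all 12206 matched genes differed. With narciclasine they are 15 of 30, where 46.9% differed. Both counts include Fabp3, whose differences were partly built in. Such genes were picked mostly for called changes in these same libraries, so their counts are no test against those shares. Other members with a called difference were Acad11 (0.759), Echs1 (0.765) and Etfa (-0.194) with TGF-β, and Acad9 (-0.459), Acad11 (-0.605) and Etfa (0.253) with narciclasine. The narciclasine difference of Acadl was lost with library totals alone (0.16, adjusted p = 0.142) and with DESeq2 (0.232, adjusted p = 0.0508). Calls were gained for Acadm with library totals (-0.332), with the replicate block (-0.222), without NRK49F replicate 2 (-0.25) and with DESeq2 (-0.259), and for Etfdh with library totals (-0.321) and DESeq2 (-0.25). They were also gained without NRK49F replicate 2 for Slc25a20 with narciclasine (-0.354) and Ppara with TGF-β (-1.415), and with DESeq2 for Pparg with narciclasine (3.649). Pparg did not pass the NRK49F filter and gave 3 counts there with TGF-β and 0 with narciclasine. Its value thus rests on too few counts to show a difference. Cell kind and species cannot be told apart in any of these differences.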

How the results depend on the processing

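Over the genes described with every library's value in a cell kind, 2078 single-gene values kept their side of the threshold across the alternatives. Values called in neither fit could change sign and still count among them. Of the rest, 71 lost a call, 31 gained one and none changed sign while called. With libraries scaled by totals alone, the mitochondrial medians with TGF-β were -0.08 in TECs and -0.849 in NRK49F and the peroxisomal ones -0.312 and -0.835. For the combined treatment against control they were -0.163 and -0.821 (mitochondrial) and -0.356 and -0.905 (peroxisomal), and 4 genes were higher in TECs. With dual-site enzymes added, the peroxisomal medians with TGF-β were 0.018 in TECs and -0.40 in NRK49F, and for the combined treatment -0.19 and -0.471. With shuttle and electron transfer genes added, the mitochondrial median of the combined treatment was -0.113 in TECs and -0.589 in NRK49F, and that of narciclasine on TGF-β in NRK49F 0.19. The cause was not tested, beyond the added genes themselves. Without 1 library at a time, genes higher with narciclasine numbered 1 to 4 in TECs and 5 to 9 in NRK49F. Deviations of same-numbered libraries had correlations of -0.102 to 0.166 in TECs and -0.04 to 0.118 in NRK49F. For libraries of different numbers they were -0.134 to 0.139 and -0.177 to 0.103. With 3 libraries per group these values cannot decide whether the numbers pair the libraries. With the replicate block, TGF-β gave 13 higher and 16 lower in TECs and 6 and 20 in NRK49F, and narciclasine 3 and 16, then 7 and 10. Leaving out replicate 2 of all NRK49F groups and the block on class medians were chosen after seeing the data. No gene had several entries to sum. Genes under about 1 CPM are limited by depth.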
